A study of Mus musculus with 6 samples.

Results

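The enzymes that break down the branched-chain amino acids leucine, isoleucine and valine were followed in mouse brown adipocytes with and without the PGC-1 coactivators. All probe sets were taken whose platform annotation gives one of 10 symbols alone: the aminotransferases Bcat1 and Bcat2, the dehydrogenase complex genes Bckdha, Bckdhb and Dbt, its kinase Bckdk, and the later enzymes Ivd, Mccc1, Mccc2 and Pccb. This gave 17 of the 45037 probe sets, for 10 of the 18193 genes with a probe set of their own. All 10 genes lay above the filter on dim genes, an intensity of 163.6, and 15 of the 17 probe sets did. A gene with several probe sets is represented by the brightest, and the others are described beside it.

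RNA came from 6 arrays in 3 groups of brown fat cells immortalised with the SV40 large T antigen and differentiated for 7 days, with 2 arrays per group. Wild-type (WT) cells are labelled with passage 4, the label of one WT array gives a mixed mouse background, and no siRNA is named for them. KO-control cells were PGC-1alpha -/- and expressed a control siRNA. Knockdown cells were PGC-1alpha -/- and expressed an siRNA specific for PGC-1beta. The series design calls the replicates biological, and the labels do not say whether a group came from 1 cell line or animal. Genotype, cell line and siRNA vector therefore cannot be told apart in a comparison with wild type. Sex-linked transcripts also separated the lines: the Y-linked Eif2s3y read 872.4 and 960.5 in wild type, 6.253 on 1 KO-control array and 5.129 on 1 knockdown array, with no value elsewhere. The X-linked Xist had no value in wild type and read 1230 and 1648 in KO-control and 958.3 and 849.2 in knockdown cells. The sex of the cells, as read from these transcripts, therefore cannot be told apart from genotype in a comparison with wild type either. In bulk RNA, fewer cells of a type and less RNA per cell cannot be told apart.

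Breakdown of the branched-chain amino acids begins with a reversible transfer of their amino group to 2-oxoglutarate, which gives glutamate and a branched-chain ketoacid. The ketoacid is then committed to oxidation by the mitochondrial branched-chain ketoacid dehydrogenase complex, which a dedicated kinase switches off and a phosphatase switches on. Separate routes then carry the leucine, isoleucine and valine skeletons to acetyl-CoA, acetoacetate and succinyl-CoA. Brown fat takes up and oxidises these amino acids when it makes heat, and adipocytes also use their carbon for fat synthesis.

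The promoters of Bckdha and Bckdhb are shown first, because these genes encode the alpha and beta subunits of one decarboxylase (E1) and their RNA moved in opposite directions. Each run holds the 250 bases before the annotated start, 5′ to 3′ on the gene's strand, from RefSeq (GRCm38.p6), at chr7:25658762-25659011 on the minus strand for Bckdha and chr9:83924887-83925136 on the plus strand for Bckdhb. Capitals mark AGGTCA (a core read by nuclear receptors), CCAAT and GGGCGG (the GC box), searched on both strands.
Bckdha: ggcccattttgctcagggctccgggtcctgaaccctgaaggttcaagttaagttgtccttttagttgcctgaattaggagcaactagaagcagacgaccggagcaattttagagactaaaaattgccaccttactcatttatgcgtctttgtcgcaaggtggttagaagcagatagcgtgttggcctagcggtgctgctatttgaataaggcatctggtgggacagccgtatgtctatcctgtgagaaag
Bckdhb: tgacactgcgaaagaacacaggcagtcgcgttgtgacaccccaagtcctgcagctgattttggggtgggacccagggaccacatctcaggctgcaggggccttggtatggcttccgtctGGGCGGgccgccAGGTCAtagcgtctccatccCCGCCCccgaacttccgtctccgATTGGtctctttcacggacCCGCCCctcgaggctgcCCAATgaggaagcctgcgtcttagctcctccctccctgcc

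The Bckdha window held none of these short motifs, and the Bckdhb window held AGGTCA on the strand shown, CCAAT on each strand and GGGCGG on each strand. GC content over the 300 bases from 250 before to 50 after the start was 48% for Bckdha and 65% for this Bckdhb window. A second annotated Bckdhb start had a GC content of 37.3% and held CCAAT alone, past the start. Among all 32851 RefSeq promoter windows of this length, 16.3% held AGGTCA, 37.4% CCAAT and 35.7% GGGCGG. Among the 12 windows found for 9 of the 10 genes, 2 held AGGTCA, 7 CCAAT and 2 GGGCGG. Longer motifs were searched as well: TNAAGGTCA (estrogen-related receptors), the palindrome of nuclear respiratory factor 1, and TGACGTCA (the cAMP response element). None of the 12 windows held any of these 3, against 1.28%, 0.971% and 1.79% of all windows. TNAAGGTCA contains AGGTCA. A match or its absence in this window describes the letters there and not binding.

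The identity of the cells and the targeted genes were checked once. The adipocyte genes Fabp4 and Adipoq stood at 13496.4 to 15531 and at 9523.1 to 12129.1 over the 6 arrays. Ucp1, the uncoupling protein of brown fat, had means of 4625 in wild type, 3962 in KO-control and 130.2 in knockdown cells, and in the knockdown group this defining brown fat marker lay below the intensity used as the filter. Ppargc1b (PGC-1beta) had means of 3006, 2082 and 378.8 in the same order. The probe sets of Ppargc1a (PGC-1alpha) still gave 281.847 to 830.42 in KO-control, and which of them lie in the deleted part is not given in the sources used here. Across genes, the log2 values of the 2 arrays of a group correlated with r = 0.989 in wild type, 0.978 in KO-control and 0.963 in knockdown, and the second knockdown array had the lowest array median (220.9, against up to 242.7).

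**Figure D1:**
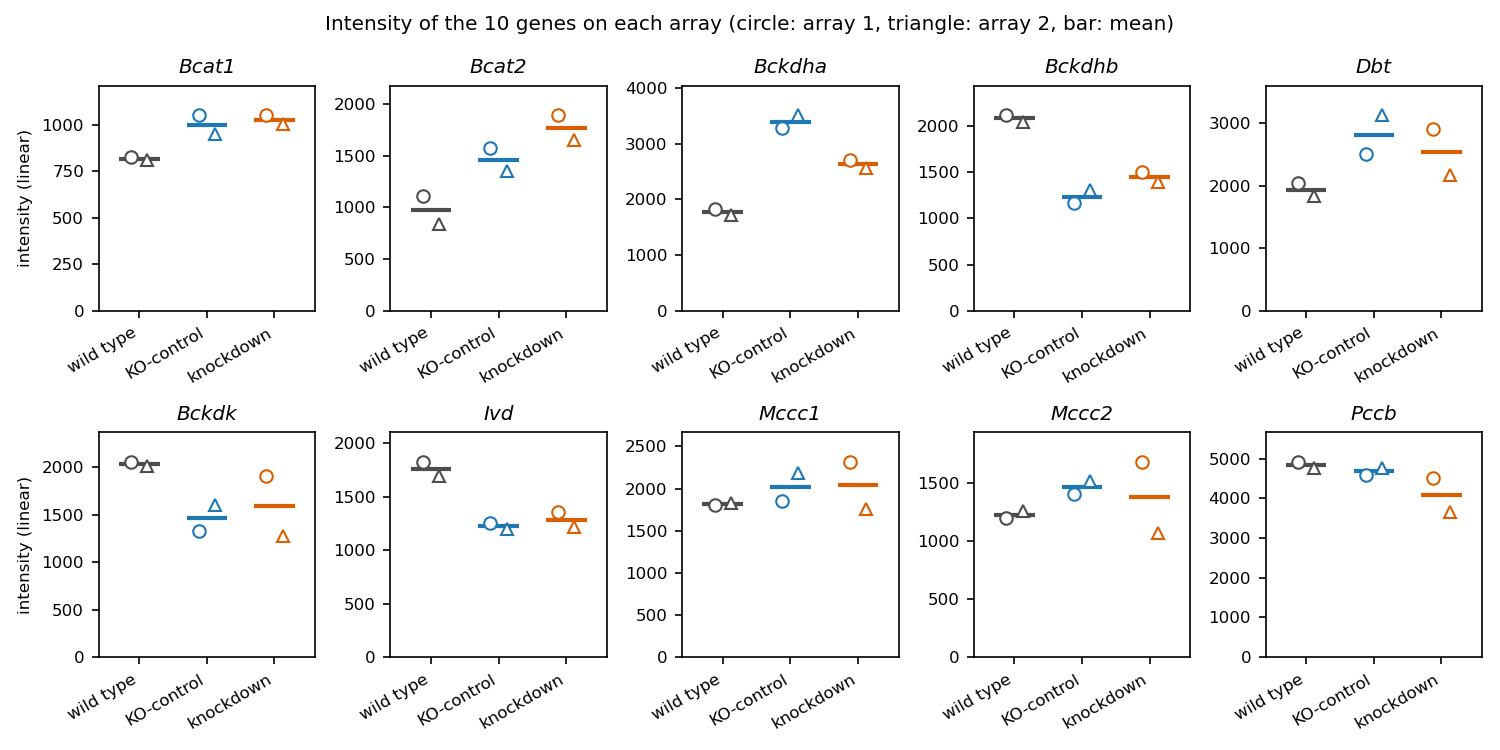
Intensity on a linear scale (y axes, from 0) of the 10 genes on each of the 6 arrays, by group (x axes), with a circle for array 1, a triangle for array 2 and a bar for the mean of 2 arrays. Bckdha stood at 1723.16 to 1828.68 in wild type and at 2569.94 to 3509.84 on the other 4 arrays, and Bckdhb at 2051.89 to 2119.33 and at 1165.34 to 1509.32.

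Between wild type and KO-control, the E1 subunits had the largest differences of the 10 genes. Bckdha, the alpha subunit that carries the phosphorylation sites through which the complex is regulated, had intensities of 1828.68 and 1723.16 in wild type, 3277.9 and 3509.84 in KO-control, and 2701.52 and 2569.94 in knockdown cells. The 3 groups did not overlap, with wild type lowest and KO-control highest. Bckdha rose 1.89-fold between wild type and KO-control (log2 fold change 0.92 ± 0.14 SE, 95% interval 0.61 to 1.24, limma adjusted p = 0.00766). It was also higher in knockdown cells than in wild type, by 1.48-fold (0.56 ± 0.14, limma adjusted p = 0.0395).

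Bckdhb, the beta subunit that completes the same decarboxylase, ran the other way. Its intensities were 2119.33 and 2051.89 in wild type, 1165.34 and 1310.48 in KO-control, and 1509.32 and 1396.39 in knockdown cells. Again no groups overlapped, with wild type highest and KO-control lowest. Bckdhb fell 1.67-fold between wild type and KO-control (-0.74 ± 0.14, 95% interval -1.07 to -0.41, limma adjusted p = 0.0223). Its difference between wild type and knockdown cells, -0.51 ± 0.14, did not pass (limma adjusted p = 0.0578), but it passed under a pseudocount of 64, under the stricter 60th percentile filter and without knockdown array 1 (adjusted p from 0.0402 to 0.139 over 11 other settings).

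Of the 10 genes, Bckdha alone rose and Bckdhb alone fell between wild type and KO-control, where 2.55% of all 13652 genes tested were called higher, 3.5% lower and 6.05% in either direction. The Bckdha call was lost without any 1 of the 4 arrays of these groups (limma adjusted p up to 0.106, without WT array 2), with a log2 fold change of 0.87 to 0.97 in those fits. The Bckdhb call was likewise lost without any 1 of these arrays (limma adjusted p up to 0.205, without WT array 1), at log2 fold changes between -0.82 and -0.66. With no filter on dim genes the Bckdhb call was also lost, at the same log2 fold change of -0.74.

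Each array measures both subunits, so the log2 difference between them can be read within an array. Relative to the wild-type mean, Bckdha minus Bckdhb was 0.02 and -0.02 on the wild-type arrays, 1.70 and 1.63 in KO-control, and 1.06 and 1.09 in knockdown cells. The arrays of a group lay close together, and the 3 groups were far apart. The mean shift was 1.66 ± 0.05 (SD, n = 2) in KO-control and 1.07 ± 0.03 in knockdown cells. This quantity was chosen with the subunits' values known and is a description. It shows unequal change of these RNAs and says nothing of which one changed or of their relative amounts.

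Dbt encodes E2, the core acyltransferase of the complex. Its intensities were 2038.95 and 1829.84 in wild type, 2501.44 and 3122.66 in KO-control, and 2898.28 and 2174.21 in knockdown cells. The wild-type arrays were the lowest, and the KO-control and knockdown arrays overlapped. Dbt did not pass in any comparison (0.53 ± 0.19 from wild type to KO-control, limma adjusted p = 0.152), but it passed after quantile normalization (adjusted p = 0.0234 in that step and 0.0338 between wild type and knockdown). Bckdhb stood 1.27 ± 0.11 (SD, n = 2) below Dbt in KO-control on the log2 scale, relative to wild type, and Bckdha 0.40 ± 0.15 above it.

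Bckdk encodes the kinase that phosphorylates E1 alpha and inactivates the complex. Its brighter probe set read 2059.61 and 2011.55 in wild type, 1334.49 and 1603.44 in KO-control, and 1912.97 and 1277.68 in knockdown cells. All 4 knockout arrays lay below wild type, and the knockdown arrays were far apart. The differences did not pass (-0.47 ± 0.20 in KO-control and -0.37 ± 0.20 in knockdown against wild type, limma adjusted p = 0.233 and 0.297). The other probe set, whose name carries the suffix for probes shared with other transcripts, gave a smaller difference of -0.14 ± 0.17 between KO-control and wild type in a fit over all probe sets (limma adjusted p = 0.706).

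**Figure D2:**
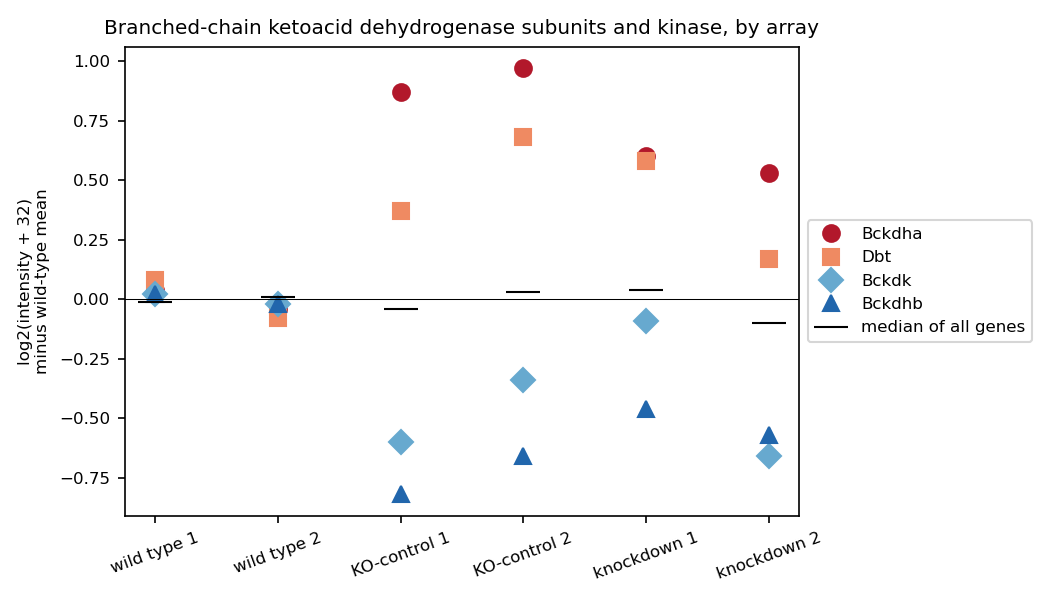
Difference of log2(intensity + 32) from the wild-type mean (y axis) on each array (x axis) for Bckdha, Dbt, Bckdk and Bckdhb, with a dash for the median of all genes tested. On the 4 knockout arrays Bckdha lay at 0.53 to 0.97 and Bckdhb at -0.82 to -0.46, while the median of all genes lay at -0.10 to 0.04, and the symbols overlie each other in wild type.

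The other regulators of the complex were taken from a list. Dld, the shared E3 subunit of this and other ketoacid dehydrogenases, had means of 4068 in wild type, 4194 in KO-control and 2617 in knockdown cells. The knockdown arrays differed widely for Dld, at 3377 and 1858, and no comparison passed (lowest limma adjusted p = 0.126). The sign of the Dld difference also depended on the processing. Over 11 other settings its log2 fold change in knockdown cells ran from -0.74 to 0.33 against KO-control and from -0.70 to 0.42 against wild type. Ppm1k, the phosphatase that reactivates the complex, had means of 672, 829.4 and 648.4 and did not pass. Klf15, a transcription factor that raises genes of branched-chain amino acid breakdown in muscle and heart, stood at 634.1 and 665.3 in wild type, 1172 and 1808 in KO-control, and 2115 and 1368 in knockdown cells. It rose 2.18-fold in KO-control (1.13 ± 0.25, limma adjusted p = 0.0366) and 2.54-fold in knockdown cells against wild type (1.35 ± 0.25, limma adjusted p = 0.014). The first call was lost without any 1 array of its groups (limma adjusted p up to 0.173) and the second without either wild-type array (up to 0.0619). Of 11 other settings the first was kept in 8 and the second in 10.

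Of the aminotransferases, Bcat2 was higher in knockdown cells than in wild type, and Bcat1 passed in no comparison. Bcat2, the mitochondrial aminotransferase, had intensities of 1108.75 and 843.04 in wild type, 1575.09 and 1347.46 in KO-control, and 1890.1 and 1650.77 in knockdown cells. The groups did not overlap, and their order was wild type, KO-control, knockdown. Bcat2 rose 1.8-fold between wild type and knockdown cells (0.85 ± 0.18, 95% interval 0.44 to 1.25, limma adjusted p = 0.0222). The steps on the way, 0.58 ± 0.18 and 0.27 ± 0.18, did not pass (limma adjusted p = 0.103 and 0.555). Without WT array 2 the call was lost (0.66, limma adjusted p = 0.222), and of 11 other settings it was lost with no filter on dim genes.

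Bcat1 encodes the cytosolic aminotransferase. Its brightest probe set read 828.334 and 809.049 in wild type, 1051.94 and 950.652 in KO-control, and 1052.12 and 1005.28 in knockdown cells. Wild type lay below the other 4 arrays, and KO-control and knockdown overlapped. No comparison passed (0.28 ± 0.14 and 0.32 ± 0.14 against wild type, limma adjusted p = 0.299 and 0.196). A second Bcat1 probe set varied within a group more than between groups, with 116.974 and 699.076 on the KO-control arrays. The third was dim, at 55.4041 to 171.989, and was not tested.

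The aminotransferases pass nitrogen to glutamate, so 6 measured genes of glutamate and nitrogen handling were read beside them. Between wild type and KO-control 3 rose and 1 fell, at a list median of 0.15 against 0.00 over all genes. Of all genes tested, 2.55% were called higher and 3.5% lower. Over all settings tried, 0 to 3 of the list rose and 0 to 1 fell. Got2, the mitochondrial aspartate aminotransferase, stood at 3779 and 4211 in wild type, 1343 and 1565 in KO-control, and 1866 and 1739 in knockdown cells. Got2 fell 2.71-fold in KO-control and 2.19-fold in knockdown cells against wild type (-1.44 ± 0.15 and -1.13 ± 0.15, limma adjusted p = 0.00132 and 0.00377). Both Got2 calls were kept with each array left out in turn, but the first was lost with the mean of its probe sets (-0.61).

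Gpt2, the mitochondrial alanine aminotransferase, stood at 517.4 and 535.6 in wild type, 873.6 and 858.1 in KO-control, and 1477 and 1289 in knockdown cells. Like Bcat2 its groups followed the order wild type, KO-control, knockdown. It rose 1.61-fold and then to 2.53-fold above wild type (0.68 ± 0.14 and 1.34 ± 0.14, limma adjusted p = 0.0285 and 0.00129), and the first of these calls was lost without any 1 array of its groups (limma adjusted p up to 0.252). The step from KO-control to knockdown, 0.65 ± 0.14, did not pass (limma adjusted p = 0.0793). Glud1, glutamate dehydrogenase, rose 1.9-fold in KO-control and Glul, glutamine synthetase, 1.54-fold (limma adjusted p = 0.0104 and 0.0352). Each was lost without 1 array: Glud1 without WT array 1, WT array 2 or KO-control array 1, and Glul without any 1 array of these groups (limma adjusted p up to 0.106 and 0.322). Of all genes, 4% were called higher and 6% lower in knockdown cells than in wild type. Against wild type, knockdown cells had 2 genes of this list higher, Gpt2 and Glud1 (1.54-fold, limma adjusted p = 0.0363), and 2 lower, Got2 and the cytosolic Got1 (1.6-fold, limma adjusted p = 0.0416). The last call was lost in 5 of 6 fits that left out an array, and that of Glud1 without either wild-type array (limma adjusted p up to 0.295 and 0.265). Of 11 other settings, the KO-control calls were kept in 7 for Gpt2, 11 for Glud1 and 9 for Glul, and the knockdown calls in 11 for Gpt2, 7 for Glud1, 11 for Got2 and 7 for Got1.

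In the leucine branch, Ivd and the carboxylase subunits Mccc1 and Mccc2 passed in no comparison. Ivd encodes isovaleryl-CoA dehydrogenase, which takes the leucine ketoacid's product one step further. Its brighter probe set read 1827.47 and 1691.27 in wild type, 1259.28 and 1202.47 in KO-control, and 1354.47 and 1213.85 in knockdown cells. Wild type lay above the other 4 arrays, which overlapped. Neither difference from wild type passed (-0.50 ± 0.14 and -0.45 ± 0.14, limma adjusted p = 0.079 and 0.0889), but the first passed with the arrays scaled to the same median, in a fit of these groups alone and without either knockdown array (lowest adjusted p = 0.0327). The second Ivd probe set also had wild type highest, at 1420.64 and 1410.03 against 978.642 to 1116.04 on the other arrays.

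Mccc1 and Mccc2 encode the biotin-carrying and carboxyl-transferring subunits of methylcrotonyl-CoA carboxylase. Mccc1 read 1808.5 and 1822.76 in wild type, 1855.9 and 2180.12 in KO-control, and 2316.74 and 1760.76 in knockdown cells. Mccc2 read 1199.72 and 1256.4, 1408.66 and 1516.44, and 1682.99 and 1070.98 in the same order. For each subunit, knockdown array 1 was the highest of the 6 and knockdown array 2 the lowest, so the knockdown group spanned the other groups. Neither gene passed in any comparison, with 95% intervals against wild type from -0.25 to 0.54 for Mccc1 and -0.23 to 0.72 for Mccc2 in KO-control. The log2 difference between these subunits, relative to wild type, stayed between -0.16 and 0.15 on all arrays, where that of the E1 subunits reached 1.70. The 3 Mccc2 probe sets did not agree: the dimmest was lowest on knockdown array 1 (481.989), where the other 2 were highest.

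Pccb encodes the beta subunit of propionyl-CoA carboxylase, which receives the carbon of isoleucine and valine. It read 4919.85 and 4768.57 in wild type, 4584.03 and 4773.75 in KO-control, and 4508.31 and 3646.06 in knockdown cells. Wild type and KO-control overlapped, and the knockdown arrays were the lowest. Pccb did not pass (-0.05 ± 0.15 and -0.25 ± 0.15 against wild type, limma adjusted p = 0.903 and 0.349). Pcca, its alpha subunit partner, stood at 2968 and 2887, 3000 and 3380, and 2132 and 1924, with the knockdown arrays below the rest. Its step from KO-control to knockdown was -0.64 ± 0.14 (limma adjusted p = 0.0856) and did not pass. Over 11 other settings the log2 fold change of Pcca in this step lay between -0.65 and -0.24, and it passed in 1.

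**Figure D3:**
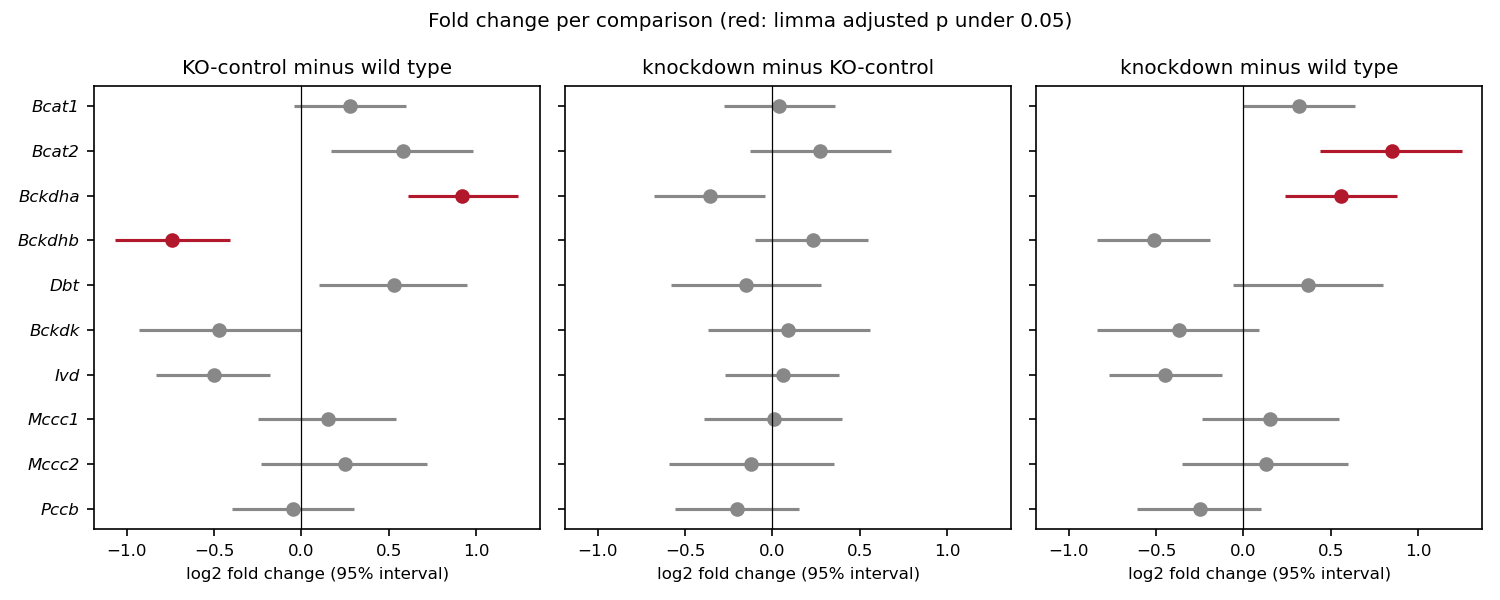
Log2 fold change (x axes) with its 95% interval from limma for the 10 genes (y axis) in the 3 comparisons, with calls in red. Bckdha and Bckdhb were called on opposite sides of 0 between KO-control and wild type, none was called between knockdown and KO-control, and Bcat2 and Bckdha were called between knockdown and wild type.

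Lowering PGC-1beta in the knockout cells moved none of the 10 genes past the threshold. In limma 0 of 10 were called between KO-control and knockdown, where 0.835% of 13649 genes were (0.271% higher and 0.564% lower), and 1 of 10 (Bckdha) had an unadjusted p under 0.05. Bckdha was 1.28-fold lower in knockdown cells (-0.36 ± 0.14, limma adjusted p = 0.292) and Bckdhb 1.17-fold higher (0.23 ± 0.14, limma adjusted p = 0.541), each on the side of wild type. The 95% intervals of the 10 genes reached from -0.68 to 0.68, and a p that misses the threshold does not show equal levels. The groups did not overlap for 4 genes, against 38.5% of all genes. The effects of the siRNA itself and of the cell population that carries it cannot be told apart from the loss of PGC-1beta.

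Knockdown cells had 2 of the 10 genes called against wild type, Bcat2 and Bckdha, both higher, where 4% of 13644 genes were called higher, 6% lower and 10% in either direction. Bckdha in this comparison was lost without any 1 of the wild-type and KO-control arrays (limma adjusted p up to 0.338, without WT array 2). It was kept in 6 of 11 other settings, and was lost, among others, when dim genes were kept in, under either other rule for choosing probe sets and in a fit of 2 groups alone. The groups did not overlap for 8 of the 10 genes, against 55% of all genes, and in the comparison of KO-control with wild type for 9 of 10, against 58.1%. These comparisons share the wild-type arrays. The 10 genes' median log2 fold change was 0.20 in KO-control and 0.14 in knockdown against wild type, beside 0.00 and -0.03 over all genes. Their median size of change, without sign, was 0.49 and 0.37, beside 0.19 and 0.22.

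Knockdown array 2 read lower than knockdown array 1 for every one of the 10 genes, and the 10 genes' median deviation from wild type was 0.35 on array 1 and -0.12 on array 2, beside 0.04 and -0.10 over all genes. Without knockdown array 1, the median log2 fold change of the 10 genes against wild type was -0.12. Without knockdown array 2, the median was 0.35.

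A fit over all probe sets called those of the same genes: Bckdha and Bckdhb between wild type and KO-control (limma adjusted p = 0.00861 and 0.0239, 6.32% of 22723 probe sets called), and Bcat2 and Bckdha between wild type and knockdown (0.0224 and 0.0456, 9.93% of 22715 called). Between KO-control and knockdown it called none of the 15, with 0.625% of 22719 called and 1 of the 15, that of Bckdha, at an unadjusted p under 0.05. Bcat2, Bckdha, Bckdhb, Dbt and Pccb have 1 probe set each, so no second measurement bears on the 4 calls.

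**Figure D4:**
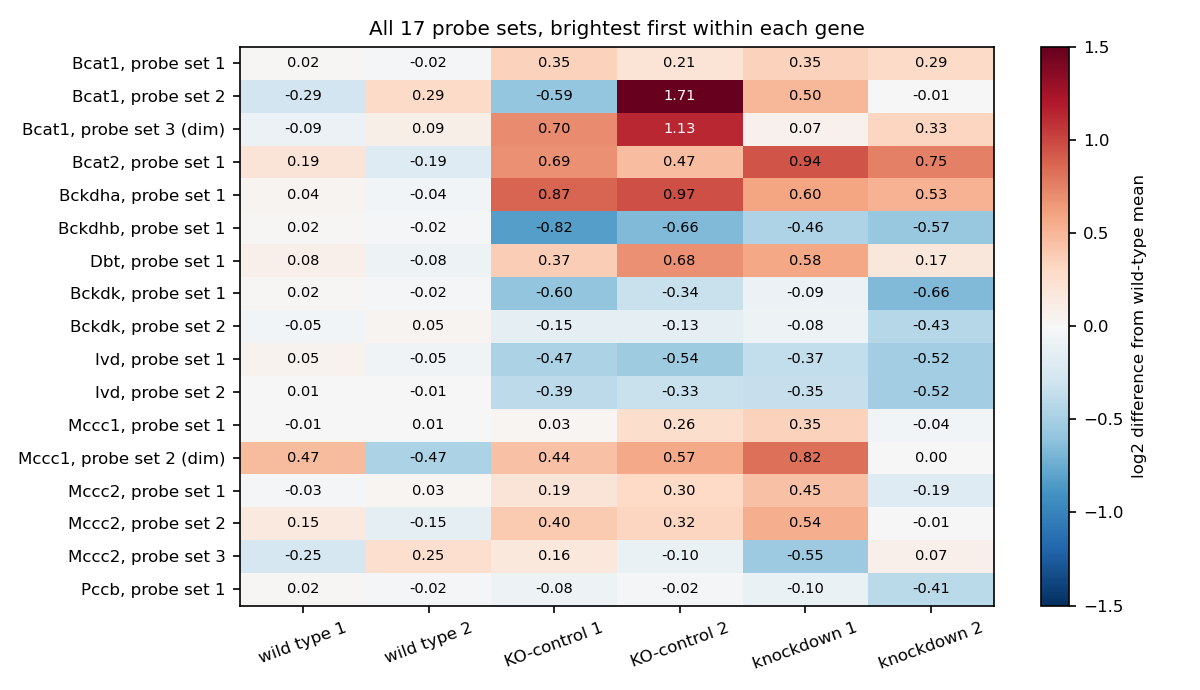
Difference of log2(intensity + 32) from the wild-type mean (colour and printed value) for all 17 probe sets (rows, brightest first within a gene) on the 6 arrays (columns), with 2 probe sets below the filter marked dim. Both Ivd probe sets and both Bckdk probe sets were below wild type on all 4 knockout arrays, while those of Bcat1 and of Mccc2 disagreed.

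Across the 6 arrays, which fall into 3 groups, the genes' log2 values ran in opposed sets. Bckdha followed Dbt (Pearson r = 0.87) and Bcat1 (0.81) and opposed Bckdhb (-0.95) and Ivd (-0.91). Bckdhb followed Ivd (0.95) and Bckdk (0.83), and Mccc1 followed Mccc2 (0.91). These values mostly restate the differences between the groups. Among all genes with a value on every array, the 5 whose pattern was most like that of Bckdha, the gene with the widest range of group means, were Fam13a (r = 0.996), Kif1b (0.995), Trafd1 (0.994), Slc7a2 (0.994) and Setmar (0.993). Fam13a, for example, had means of 986.2 in wild type, 3176 in KO-control and 1999 in knockdown cells.

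The remaining steps of the leucine, isoleucine and valine routes were read from a list of 16 genes, of which 15 were measured. Between wild type and KO-control 2 rose, 0 fell and 13 did not pass in limma, at a median of 0.01. Of all genes tested, 2.55% were called higher and 3.5% lower. Hsd17b10, a dehydrogenase of isoleucine breakdown, stood at 2905 and 2866 in wild type and 5198 and 4952 in KO-control, and rose 1.75-fold (0.81 ± 0.14, limma adjusted p = 0.0212). Aldh6a1, a dehydrogenase of valine breakdown, stood at 3133 and 3127 and at 4738 and 4729, and rose 1.51-fold (0.59 ± 0.13, limma adjusted p = 0.0398). Both calls were lost without any 1 of the 4 arrays (limma adjusted p up to 0.185 and 0.326). The first was kept in 9 of 10 other settings and the second in 7 of 11.

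Between KO-control and knockdown 0 of these 15 genes passed in limma and 4 had an unadjusted p under 0.05, at a median of -0.21. Against wild type, knockdown cells had 2 genes lower, and 1 gene was called higher on a single knockdown array. Of all genes, 6% were called lower and 4% higher. Hsd17b10 rose 1.64-fold (0.72 ± 0.18, limma adjusted p = 0.0448), with 4766 on the 1 knockdown array that had a value. The fit used that array alone and took its spread from the other groups, so the difference has no replicate check in knockdown cells, and it passed in 5 of 10 other settings. Acat1, the thiolase that ends isoleucine breakdown and also handles ketone bodies, stood at 8018 and 8216 in wild type and 5271 and 4250 in knockdown cells, and fell 1.71-fold (-0.77 ± 0.15, limma adjusted p = 0.0183). Mmut, methylmalonyl-CoA mutase, stood at 2570 and 2868 and at 1903 and 1633, and fell 1.53-fold (-0.61 ± 0.15, limma adjusted p = 0.0377). Each of these 3 calls was lost without either wild-type array, and those of Hsd17b10 and Mmut also without either KO-control array. That of Mmut was lost without knockdown array 2 as well (limma adjusted p up to 0.272 for Hsd17b10, 0.158 for Acat1 and 0.332 for Mmut). Of 11 other settings, the Acat1 call was kept in 10 and that of Mmut in 6.

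Of 6 listed carriers of branched-chain and other large amino acids, 5 were above the filter, and Slc7a8 was dim. None passed between wild type and KO-control or between KO-control and knockdown in limma, with 1 at an unadjusted p under 0.05 in each. Slc3a2, the heavy chain that brings such carriers to the cell surface, stood at 2583 and 3032 in wild type, 3829 and 4318 in KO-control, and 5575 and 4900 in knockdown cells. The groups did not overlap, and Slc3a2 rose 1.86-fold between wild type and knockdown (0.89 ± 0.16, limma adjusted p = 0.0114). That call was lost without either wild-type array (limma adjusted p up to 0.131). Slc25a44, the mitochondrial carrier of branched-chain amino acids in brown fat, had means of 1094, 1393 and 1325 and did not pass (0.34 ± 0.15 and 0.27 ± 0.15 against wild type, limma adjusted p = 0.253 and 0.327).

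The citric acid cycle, which takes up the end products, gave other counts in the PGC-1beta step. Of 16 of its genes, 5 fell and 0 rose between KO-control and knockdown, at a median of -0.76, beside 0.02 for the 10 genes and -0.01 for all genes. Of all genes, 0.564% were called lower in this step. With each array left out in turn, 0 to 10 cycle genes fell. Over all settings tried, 0 to 14 fell, and the median lay between -0.86 and -0.57. Ogdh, a subunit of the 2-oxoglutarate dehydrogenase built like the branched-chain complex, fell 2.43-fold (-1.28 ± 0.15, limma adjusted p = 0.0155). Of 16 fatty acid oxidation genes, 1 fell (Acadvl, 1.89-fold, limma adjusted p = 0.0406), at a median of -0.33. The Ogdh call was lost without either KO-control array (limma adjusted p up to 0.138), and the Acadvl call was lost in 5 of 6 fits that left out an array, kept only without knockdown array 1 (up to 0.263). The first was kept in 9 of 10 other settings and the second in 7 of 11. The difference between these lists and the 10 genes was not tested.

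**Figure D5:**
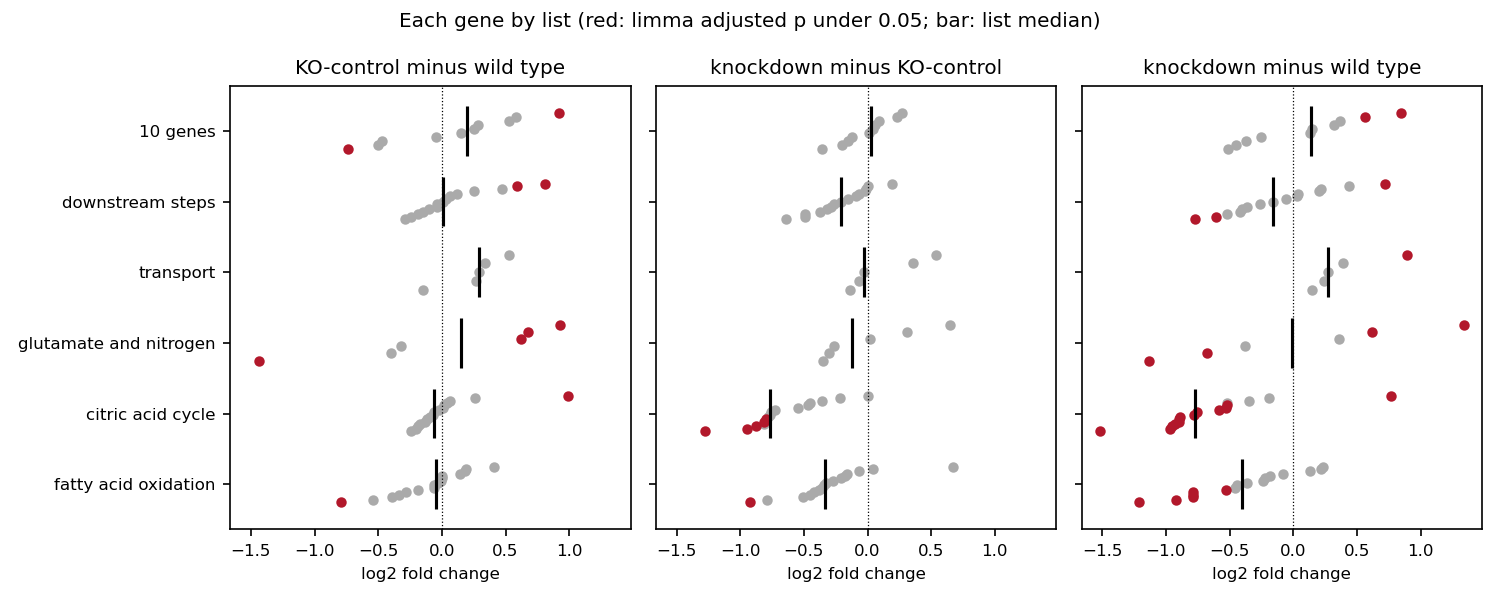
Log2 fold change (x axes) of each gene tested, by list (y axis), in the 3 comparisons, with calls in red and a bar for the list median. Between knockdown and KO-control the 10 genes lie around 0 (median 0.02) and the citric acid cycle genes at a median of -0.76.

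Markers of other cell types differed between the groups too. The summed intensity of 7 measured smooth muscle and pericyte markers was 5418 to 5876 in wild type, 3752 to 3870 in KO-control and 3284 to 3367 in knockdown cells. Of the 5 above the filter, 3 fell between wild type and KO-control (1 to 3 with an array left out), where 3.5% of all genes were called lower. Acta2, with means of 3195 and 2059, weighs heavily in this sum. Its log2 fold change of -0.62 ran from -0.65 to 0.44 over 10 other settings and was called in 6. Of the 2 not called, Myh11 was higher in KO-control (435.3 against 359.7) and Des lower (347.3 against 387). The sum of 7 preadipocyte and fibroblast markers was 1872 to 2289 in wild type, 2482 to 2568 in KO-control and 3244 to 3914 in knockdown cells. Between KO-control and knockdown 1 of 5, Dlk1, rose (3.53-fold, limma adjusted p = 0.00696, lost without either KO-control array and kept in 8 of 10 other settings). In that step Pdgfra was also higher, but Pdgfrb, Thy1 and Dcn were lower, none of them called, and the list median was -0.13. The signs for Pdgfrb and Dcn depended on the processing. Over other settings the log2 fold change ran from -0.43 to 0.86 for Pdgfrb and from -0.13 to 2.11 for Dcn. Dcn was called in 1 of its 11 other settings. The list median ran from -0.30 to 0.92 over all settings tried. Dlk1 went from a mean of 411.2 to 1531 and so weighs heavily in the sum. The sum of 8 brown fat markers was 22970 to 23480, 21090 to 21300 and 9022 to 11550. Between KO-control and knockdown 4 of the 8 fell (2 to 4 with an array left out), where 0.564% of all genes were called lower. The 8 did not all move alike. Elovl3 rose between wild type and KO-control, from a mean of 224.5 to 1795 (log2 fold change 2.83, limma adjusted p = 0.000349). In knockdown cells the means of Elovl3 (2069) and Cox8b (1163, against 791.7) were above KO-control, with overlapping arrays and neither called. Above the filter, and so tested, were 5 of 6 macrophage, 2 of 5 endothelial and 3 of 7 skeletal muscle markers. None of these passed in any comparison in limma, and no listed marker was at 0 or missing on all arrays. Cd68, a macrophage marker below the filter, read 79.87 and 117.3 in KO-control and 213.4 and 200.5 in knockdown cells. The sum of the 6 macrophage markers was 3255 to 3766 and 3061 to 3530 in these groups. The part of these cell types in the values of the 10 genes was not tested.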

How the data were processed

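RNA of 3 groups of brown fat cells was measured on 6 one-colour arrays, per the labels. The authors deposited 1 linear intensity per probe set and array. Which software summarised and scaled them is not stated in the labels or headers. Array medians lay between 220.9 and 242.7, so values were not scaled again. Cells with the word null (5285) or nothing (870) were kept missing.

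Probe sets with 1 symbol (34945 of 45037) were named through the platform annotation, with symbols updated in a GRCm38.p6 gene table. Each gene took its brightest probe set, and genes under the 40th percentile of probe set means were left out, leaving 13658. limma 3.58.1 (R 4.3.3) was fitted to log2(intensity + 32) of all 6 arrays with group means; on this scale the fold change of a dim gene is understated. Benjamini-Hochberg adjustment ran over all genes tested, with a threshold of 0.05. The same model was fitted to 22731 probe sets. The procedure was tested on simulated data. Precision is limited by the 2 arrays per group, too few for an exact permutation test to pass the threshold. p-values set a difference between groups against the spread between these arrays within groups, moderated by that of all genes. The 10 genes, the lists, the pairs and the tests were chosen with earlier results of these data known. Named were the 10 genes, the targeted genes, identity markers, up to 4 called genes of each list and comparison, 4 fixed genes, and the 5 most like the gene with the widest range; Dld, Ogdh, Acadvl and Dlk1 were singled out with their values known. The short promoter motifs were added after the longer ones gave no match. Some listed genes are not reported here. Alternatives were 2 pseudocounts, 2 filters, 2 scalings, 2 probe set rules, the variance model, the arrays fitted, a replicate block and each array left out.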

Additional observations from a re-analysis of the deposited data

How the results depend on the processing

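In the order KO-control against wild type, knockdown against KO-control and knockdown against wild type, 826, 114 and 1365 genes, 1435, 142 and 2256 probe sets and 2, 0 and 2 of the 10 genes were called. Settings are named where a count moved by over 1.5 times. With no filter on dim genes, which tests more genes, the counts were 364, 9 and 585 genes, 489, 6 and 628 probe sets and 1, 0 and 0 of the 10. Quantile normalization gave 1647, 377 and 2306 genes and 2658, 526 and 3876 probe sets. The mean of probe sets gave 474, 13 and 778 genes and 1 of the 10 in the last comparison, where the second brightest probe set and a fit of 2 groups alone also gave 1. Fits of 2 groups alone gave 1786 genes and 3143 probe sets in the first comparison and 47 and 39 in the second. In the second comparison the 60th percentile filter gave 199 genes and 260 probe sets, trend and robust variances 325 and 437, the second brightest probe set 73 genes, a pseudocount of 16 gave 82 probe sets, and arrays scaled to the same median 216.

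Same-numbered deviations from the group means correlated at 0.20, -0.50 and -0.15 for wild type with KO-control, KO-control with knockdown and wild type with knockdown. The value of -0.50 means that KO-control and knockdown arrays of unlike number deviated alike. Across genes, the unlike-numbered arrays of these groups correlated at 0.955 and 0.967 and the same-numbered ones at 0.947 and 0.947. The main model leaves this shared part out, and its cause was not tested. A replicate block gave 398, 22 and 704 genes, 738, 19 and 1245 probe sets, and 1, 0 and 1 of the 10 genes. The calls lost under the block were Bckdhb in the first comparison (adjusted p = 0.0697) and Bckdha in the last (0.103).

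With each array left out in turn, a lone array being assumed to vary like the other groups, the called genes ranged from 232 to 1786, from 8 to 539 and from 327 to 2339, and the probe sets from 394 to 3143, from 12 to 897 and from 548 to 4109. Of the 10 genes, 0 to 3 were called in the first comparison and 0 to 5 in the last. The median of the 10 moved by more than the SD between arrays without knockdown array 1, to -0.19 against KO-control (0.17 without knockdown array 2) and -0.12 against wild type, and without knockdown array 2 to 0.35 against wild type.

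No called gene of the 10 turned its sign in any setting. Uncalled differences between KO-control and knockdown did: with the mean of probe sets Bcat1 (-0.33), Bckdk (-0.01), Ivd (-0.01) and Mccc1 (-0.04), and with the second brightest probe set Bcat1 (-0.31), Bckdk (-0.11) and Ivd (-0.07). Over the fits that left out an array, differences that changed sign ranged from -0.19 to 0.38 for Bckdk, -0.19 to 0.20 for Mccc1, -0.03 to 0.11 for Bcat1, -0.02 to 0.14 for Ivd, -0.36 to 0.05 for Dbt and -0.44 to 0.20 for Mccc2, and against wild type from -0.04 to 0.35 for Mccc1 and -0.19 to 0.45 for Mccc2. The causes were not tested.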

Other observations

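Mccc1 and Pcca carry biotin, and biotin handling was read from a short list. Hlcs, which attaches biotin to the carboxylases, stood at 534.6 and 525.2 in wild type, 628.3 and 505.1 in KO-control, and 478.8 and 482.4 in knockdown cells. Btd, which recycles biotin, had means of 819, 725.3 and 803. Neither passed in any comparison (limma adjusted p from 0.59 to 0.941). Leucine also yields acetoacetate. Oxct1, which activates acetoacetate in mitochondria, stood at 7871 and 8087 in wild type, 6503 and 6344 in KO-control, and 6028 and 4787 in knockdown cells, in that order without overlap. Its difference between wild type and knockdown, -0.57 ± 0.16, did not pass (limma adjusted p = 0.0561), but it passed in 6 of 11 other settings. Over all 11 of these the log2 fold change lay between -0.79 and -0.40. Aacs, the cytosolic enzyme that turns acetoacetate towards lipid synthesis, stood at 2499 and 2638, 3202 and 3686, and 3845 and 3394, with wild type lowest, and its differences from wild type, 0.42 ± 0.15 and 0.49 ± 0.15, did not pass either (limma adjusted p = 0.156 and 0.0797), though they passed in 1 and 3 of 11 other settings. These 4 genes were singled out after their values were seen.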
